A study of Vitis vinifera with 24 samples.

Results

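A set of 68 genes of grapevine leaves was described whose transcripts were at least 2-fold lower when trehalose was given at 4 ℃ than at 4 ℃ without it. They were chosen from 35840 genes in the deposited table by 2 conditions. A gene had to reach 1 FPKM (fragments scaled to transcript length and to the library total, the authors' unit) in at least 3 libraries, which 20053 genes did. Its mean log2(FPKM + 1) over the 3 libraries of trehalose with cold then had to lie at least 1 below its mean over the 3 cold libraries. Throughout, 2-fold stands for 1 on this log2 scale, and ratios of mean FPKM can differ from it. For PT_newGene_1460, a gene of the set, mean FPKM in cold was 1.56 times that in trehalose with cold. The 68 genes are 0.339% of the 20053. A further 172 genes (0.858%) were at least 2-fold higher with trehalose in the cold. That difference is the basis of the choice, so it is given as a description and carries no test.

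The leaves came from self-rooted cuttings of Vitis vinifera 'Thompson Seedless', a seedless table and raisin grape, grown in a greenhouse. The 8 groups, with 3 biological replicates each, were control, trehalose (Tre in the labels), cold (4 ℃), trehalose with cold, NaCl, trehalose with NaCl, PEG6000, and trehalose with PEG6000. Every treated group was collected at 48 h, and the labels give no time for control, no dose, and no order in which trehalose and a stress were applied. Whether the replicates were separate plants is not stated, and the p-values therefore cover no more than the spread among these samples. Genes carry identifiers only, 67 of the 68 beginning with Vitvi and 1 with PT_newGene, and 0 of the identifiers could be found in the table of gene names used here. No gene can therefore be given a function here, and the leaf could not be checked against marker genes. In whole leaves, fewer cells of a type and less RNA per cell cannot be told apart.

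Trehalose is a sugar built of a pair of glucose units. Plants make it in small amounts from a phosphorylated precursor that reports sucrose supply and restrains the energy-sensing kinase SnRK1. Cold acclimation of leaves runs through CBF transcription factors and is known for the induction of dehydrins and other protective proteins and for the build-up of soluble sugars. NaCl brings ionic and osmotic stress, and PEG6000, a large polyethylene glycol, withdraws water.

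Replicates lay close together. Pearson correlations of log2(FPKM + 1) were 0.994 to 0.997 within groups and 0.823 to 0.989 between groups, and FPKM summed to 597567 to 637648 per library. Depth is unknown.

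As a set, the 68 genes were most abundant in the cold. Their median level, as log2(FPKM + 1), was 4.26 ± 0.020 in cold libraries (SD, n = 3) and 3.07 ± 0.013 with trehalose and cold. It was 1.91 ± 0.15 in control and 1.86 ± 0.099 with trehalose alone. PEG6000 leaves reached 2.98 ± 0.023 and leaves with trehalose and PEG6000 2.67 ± 0.087. NaCl leaves were at 2.35 ± 0.12 and leaves with trehalose and NaCl at 2.18 ± 0.095. By this median, control and trehalose libraries overlapped, as did NaCl libraries with and without trehalose. The gap between cold and trehalose with cold follows from the way the genes were chosen. The first place of cold rests on the same libraries, although the rule does not compare cold with the other 6 groups. The order of those 6 does not use the cold libraries. Together the genes made up 0.642 ± 0.0064% of the FPKM in cold, 0.246 ± 0.0035% in trehalose with cold and 0.103 ± 0.0040% in control. It was 0.0922 ± 0.00077% with trehalose alone, 0.157 ± 0.0012% in NaCl and 0.150 ± 0.0032% in trehalose with NaCl, and by this share neither pair of groups overlapped. In PEG6000 leaves the share was 0.478 ± 0.0042%, and 0.317 ± 0.0051% when trehalose was added. A large part of that gap came from Vitvi06g04387, without which the shares were 0.335 ± 0.0027 and 0.308 ± 0.0054%. Without the same gene the NaCl shares changed order, to 0.137 ± 0.0015% without and 0.147 ± 0.0031% with trehalose. Vitvi12g02353, still counted in these shares, moved the other way. Its means without and with trehalose were 185 and 611 FPKM under PEG6000, and 53.2 and 230 FPKM under NaCl. Shares without both genes were not computed, so these sums do not show how the rest of the set moved with trehalose.

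**Figure D1:**
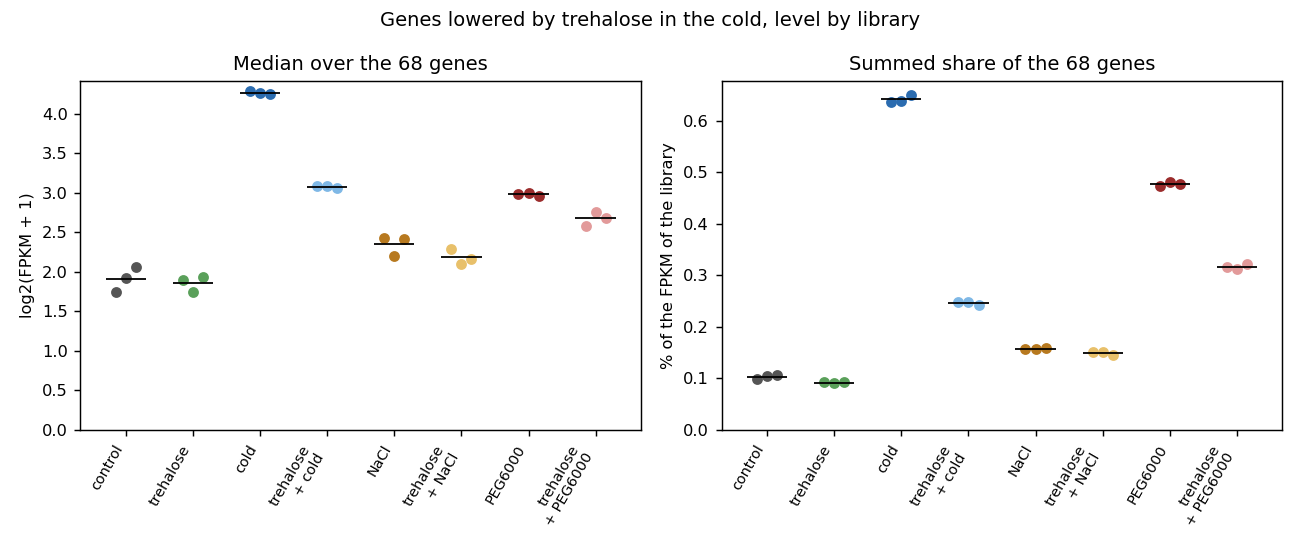
Level of the 68 genes in each of the 24 libraries. Points are libraries, lines are means over 3 replicates, the left panel gives the median log2(FPKM + 1) over the genes and the right panel their summed share of the FPKM in percent. Cold libraries lie highest in both panels (4.26 and 0.642%), and control and trehalose libraries lie lowest.

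The chosen difference was moderate for most of the set. Of the 68 genes, 35 were lower by less than 1.2 on the log2 scale, 28 by 1.2 to 2, and 5 by at least 2, with a median of -1.18 against 0.04 for all 20053 genes. The gene with the largest difference was Vitvi17g01613, at 20.3, 20.7 and 21.9 FPKM in cold and 3.50, 3.01 and 3.54 FPKM in trehalose with cold. It was under 0.3 FPKM in every library of control, trehalose, NaCl and trehalose with NaCl, and at 1.95, 2.22 and 2.87 FPKM in PEG6000. Its log2 difference was -2.34. The next, Vitvi17g04304, went from 19.8, 18.4 and 17.8 FPKM to 3.59, 3.00 and 3.39 FPKM, a difference of -2.19, and its mean was below 0.3 FPKM in control, trehalose, NaCl and trehalose with NaCl.

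The genes most abundant in the cold were Vitvi12g02353 and Vitvi02g00225. Vitvi12g02353 was at 687, 699 and 710 FPKM in cold and 223, 217 and 207 FPKM with trehalose, a log2 difference of -1.69, which left it closer to its control level of 162 ± 4.5 FPKM (SD, n = 3). Vitvi02g00225 was at 387, 383 and 387 FPKM in cold and 155, 158 and 152 FPKM with trehalose, against 37.8 ± 0.87 FPKM in control. At the limit of the rule, Vitvi02g01507 was just inside with a log2 difference of -1.001 (6.76 ± 0.75 against 2.87 ± 0.30 FPKM). Vitvi18g04219 was just outside with -0.9996 (2.32 ± 0.52 against 0.651 ± 0.061 FPKM).

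Whether a gene belongs to the set rested on 1 library in a few cases. When each of the 6 cold and trehalose-with-cold libraries was left out in turn, 53 of the 68 genes always met the rule, and 12 of the other 15 stayed at -0.90 or lower. The remaining 3 moved above -0.5, and each has values near or at 0 in single libraries. Vitvi05g02249 was at 10.9, 10.5 and 0 FPKM with trehalose and cold, and its difference from cold went from -1.60 to -0.42 without the library listed at 0. PT_newGene_1460 was at 11.3, 0.113 and 15.1 FPKM there and at -0.07 without the second library. Vitvi10g04079 was at 6.32, 7.42 and 0 FPKM in cold and 0, 6.19 and 0 FPKM with trehalose, and moved to -0.49 without 1 cold library. The last 2 are the genes whose replicates overlapped between both groups, and the other 66 did not overlap. As the rule asks for a 2-fold difference between these same libraries, overlap was unlikely beforehand. The share over all 20053 genes was not computed. These 3 genes and their libraries were singled out after their values were seen.

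Most of the set stood at least 2-fold above control in the cold, and 34 of the 68 genes did so with trehalose and cold. The comparison with control shares the cold libraries with the choice, so it is described without a test. In cold, 58 of the 68 genes were at least 2-fold above control (11.8% of all 20053 genes), 22 of them at least 8-fold (1.87%), and 1 was 2-fold below (13.6%). The median log2 difference was 2.39 in cold and 0.93 in trehalose with cold, against -0.20 and -0.17 for all genes. With trehalose, 34 genes were still at least 2-fold above control (11.7% of all genes), 28 lay within 2-fold of it and 6 were at least 2-fold below (9.64%). For the 58 genes that stood 2-fold above control in the cold, a median of 25.2% of the FPKM gained over control was left with trehalose, with quartiles of 15.7 and 37.3%. The rule itself limits this share, because mean log2(FPKM + 1) with trehalose had to lie at least 1 below cold. The highest was 48.5%. In 1 of the 58 genes, Vitvi06g00666, the level with trehalose and cold (1.26, 1.76 and 0.967 FPKM) was under that of control (2.48, 2.55 and 2.01 FPKM). Vitvi07g00405 had the largest difference between cold and control (6.09): it was at 216, 213 and 215 FPKM in cold, 104, 106 and 101 FPKM with trehalose and 2.15 to 2.20 FPKM in control.

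Another 10 genes did not stand 2-fold above control in the cold. All 6 genes at least 2-fold below control with trehalose and cold are among them, which was likely beforehand. Any other gene of the set needed a fall of at least 2 on the log2 scale, which 5 of the 68 genes had. Vitvi01g01805 is an example of the 6. It was at 3.94 ± 0.29 FPKM in control and 4.02 ± 0.78 FPKM in cold. With trehalose and cold it was at 1.29, 0.517 and 0.783 FPKM. Vitvi07g02681 was at 19.9, 23.4 and 24.3 FPKM in control, 20.3, 18.0 and 18.1 FPKM in cold and 8.03, 8.43 and 9.92 FPKM with trehalose and cold. For both genes the libraries with trehalose and cold lay below all libraries of control, trehalose and cold.

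**Figure D2:**
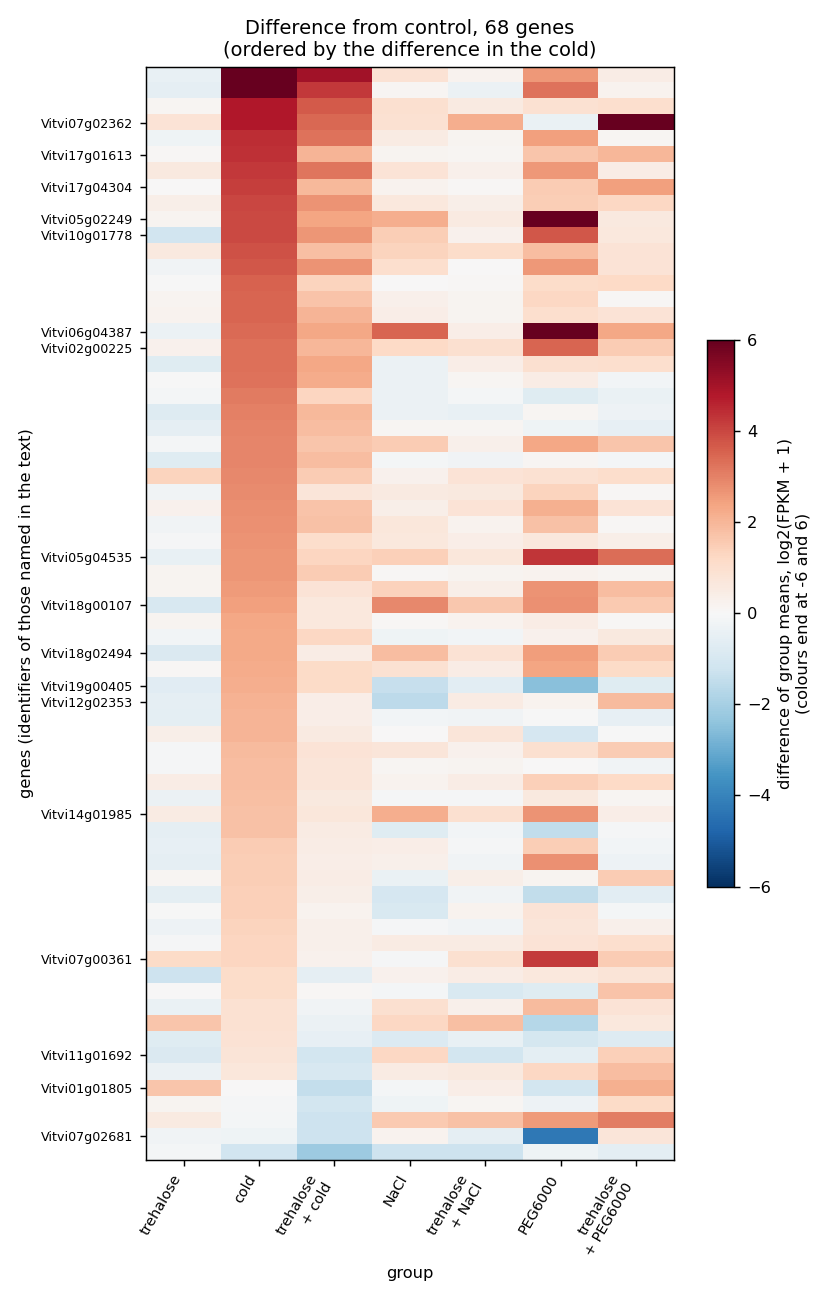
Difference of each group mean from control for the 68 genes, in log2(FPKM + 1), ordered by the value in the cold. Rows are genes and columns are groups. Red marks levels above control, as for the 58 genes at least 1 above it in the cold. The column of trehalose with cold is paler, and the PEG6000 column holds both red and blue rows.

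Given without stress, trehalose changed few of these genes 2-fold. The comparisons from here on use none of the cold libraries. Genes were tested with limma across all 20053 genes and adjusted by the Benjamini-Hochberg method. A gene counts as changed at an adjusted p below 0.05 with an absolute log2 difference of at least 1. Against control, trehalose raised 3 of the 68 genes (4.41%, against 1.02% of all genes) and lowered 2 (2.94%, against 0.110%). Without the 2-fold limit 28 genes were lower (41.2%, against 12.3% of all genes) and 12 higher (17.6%, against 16.7%). The median difference was -0.09, against 0.00 for all genes.

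Vitvi01g01805, one of the genes within 2-fold of control in the cold, rose from 4.27, 3.78 and 3.75 FPKM to 15.2, 15.5 and 13.9 FPKM with trehalose (log2 difference 1.69, SE 0.12, limma adjusted p = 2.32e-10). It was thus higher with trehalose in unstressed leaves and lower with trehalose in the cold. Vitvi07g00361 rose from 6.62, 6.60 and 5.89 FPKM to 16.3, 14.8 and 14.3 FPKM (1.13, SE 0.085, limma adjusted p = 2.96e-10). The third, Vitvi12g00381, rose from 0.548 ± 0.13 to 2.90 ± 0.23 FPKM. Replicates of both groups did not overlap for any of these 3 genes, which for the first 2 was required by the rule for naming genes. The genes that fell were Vitvi06g00666, from 2.35 ± 0.29 to 0.424 ± 0.028 FPKM (-1.23, SE 0.11), and Vitvi10g01778, from 4.11 ± 0.30 to 1.31 ± 0.089 FPKM (-1.14, SE 0.066), with limma adjusted p of 2.91e-09 and 2.83e-12. The last 3 genes were under 5 FPKM in both groups and were named after their values were seen.

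Under NaCl, trehalose lowered 8 of the 68 genes (3.58% of all genes) and raised 4 (0.863%). The median difference of the set was -0.07, close to the -0.04 of all genes, and with quantile normalization it was 0.01. Vitvi06g04387 fell most, from 120, 126 and 121 FPKM in NaCl to 12.5, 13.9 and 12.9 FPKM (log2 difference -3.13, SE 0.054, limma adjusted p = 1.85e-22). Its control level was 9.86 ± 1.0 FPKM. Vitvi11g01692 fell from 23.5, 24 and 25 FPKM to 4.04, 4.06 and 4.02 FPKM (-2.32, SE 0.060, limma adjusted p = 1.44e-19), below its control of 9.78 ± 0.11 FPKM.

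Of the genes that rose, Vitvi12g02353 moved the most, against its direction in the cold. It was at 51.3, 52.3 and 56.1 FPKM in NaCl and 237, 228 and 224 FPKM with trehalose (2.09, SE 0.055, limma adjusted p = 2.03e-19), and at 162 ± 4.5 FPKM in control. Vitvi07g02362 rose from 5, 4.43 and 5.18 FPKM to 12.4, 12.6 and 13.6 FPKM (1.24, SE 0.071, limma adjusted p = 4.42e-13). The replicates of these 4 genes did not overlap between both groups, which the rule for naming genes required. Without the 2-fold limit 16 genes were higher and 27 lower, against 19.9 and 32.0% of all genes.

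Outside the cold, the setting in which trehalose moved the largest number of genes at 2-fold was PEG6000. This held for the set and for all genes. Under NaCl the lowered genes were 11.8% of the set (3.58% of all genes) and the raised ones 5.88% (0.863%). Under PEG6000, trehalose lowered 20 of the 68 genes (8.70% of all genes) and raised 11 (10.9%), and the median difference was -0.28 where all genes had 0.08. The lowered genes were 29.4% of the set, above the background, while the raised ones were 16.2%. Of the 11 raised, 5 were among the 53 genes that met the rule whichever library was left out, and of the 20 lowered, 17 were. Without the 2-fold limit 20 were higher and 37 lower, against 43.6 and 32.9% of all genes. Vitvi06g04387 again fell, from 871, 902 and 873 FPKM to 56.2, 54.3 and 51.4 FPKM (log2 difference -4.01, SE 0.054, limma adjusted p = 1.67e-25). Vitvi05g02249 was at 151, 167 and 149 FPKM in PEG6000, whereas trehalose libraries were listed at 0 except for 1 at 2.31 FPKM (-6.71, SE 0.61, limma adjusted p = 5.59e-10), a value that depends on the pseudocount.

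The largest rises were in genes nearly silent under PEG6000. Vitvi07g02362 rose from 1.2, 1.63 and 1.28 FPKM to 264, 279 and 278 FPKM (6.86, SE 0.071, limma adjusted p = 3.68e-27), more than 3 times its level in cold, 84.6, 79.6 and 86.7 FPKM. Vitvi07g02681 rose from 0.178, 0.0829 and 0.311 FPKM to 39.2, 38.5 and 36.7 FPKM (5.04, SE 0.086, limma adjusted p = 7.75e-24). With trehalose, it was thus above its control level of 22.5 ± 2.3 FPKM under PEG6000 and below it in the cold.

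**Figure D3:**
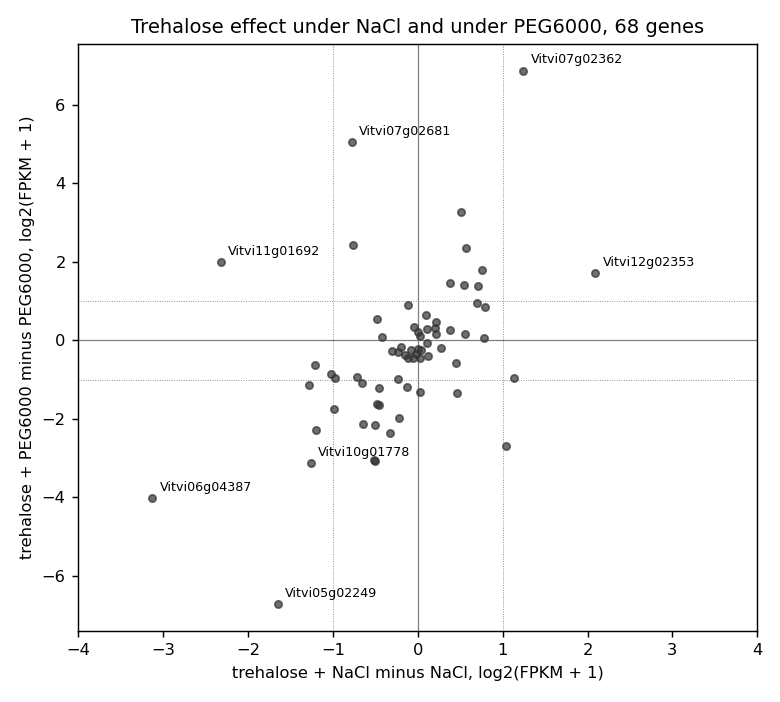
Difference made by trehalose under NaCl (x axis) and under PEG6000 (y axis) for the 68 genes, in log2(FPKM + 1). Each point is a gene and dotted lines mark a 2-fold change. Vitvi06g04387 lies low on both axes (-3.13 and -4.01), Vitvi12g02353 high on both, and Vitvi11g01692 is lower under NaCl and higher under PEG6000.

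The 3 trehalose effects outside the cold share no library with each other or with the cold groups, so they can be set side by side. At 2-fold, trehalose lowered 24 of the 68 genes in at least 1 of the 3 settings (9.73% of all genes) and 5 in at least 2 (2.59%), while 44 fell in none. Of the 8 genes lowered under NaCl, 5 were among the 20 lowered under PEG6000, which is 62.5% of the first list and 25.0% of the second. For all genes the shared part was 71.4% of those lowered under NaCl and 29.3% of those lowered under PEG6000, so the sharing within the set was near the background. The 5 are Vitvi06g04387, Vitvi18g00107, Vitvi14g01985, Vitvi05g02249 and Vitvi10g01778. Across the 68 genes the effects under NaCl and PEG6000 had a Pearson's r of 0.47 (rho 0.52), and across all 20053 genes 0.61 (rho 0.64). Genes are not independent replicates, and both effects come from libraries normalised to their own totals.

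A single gene of the set, Vitvi10g01778, fell 2-fold with trehalose in all 3 settings, as did 13 of all 20053 genes. It was at 82.4, 79.0 and 75.3 FPKM in cold and 32.1, 31.6 and 30.7 FPKM in trehalose with cold. Under NaCl it fell from 14.0, 13.2 and 13.0 FPKM to 5.17, 4.33 and 5.62 FPKM with trehalose (log2 difference -1.26, SE 0.066, limma adjusted p = 8.41e-14). Under PEG6000 it fell from 66.4, 67.5 and 67.2 FPKM to 7.43, 6.76 and 6.21 FPKM (-3.13, SE 0.066, limma adjusted p = 3.78e-22). Without any stress it fell from 4.03, 3.85 and 4.44 FPKM to 1.21, 1.37 and 1.35 FPKM, so that trehalose libraries were lower in each setting with no overlap. Its trehalose effect under NaCl did not differ detectably from that without stress (difference -0.12, SE 0.093, limma adjusted p = 0.335). Under PEG6000 the effect was larger than without stress (difference -1.98, SE 0.093, limma adjusted p = 4.92e-15). The gene was picked after its values were seen.

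**Figure D4:**
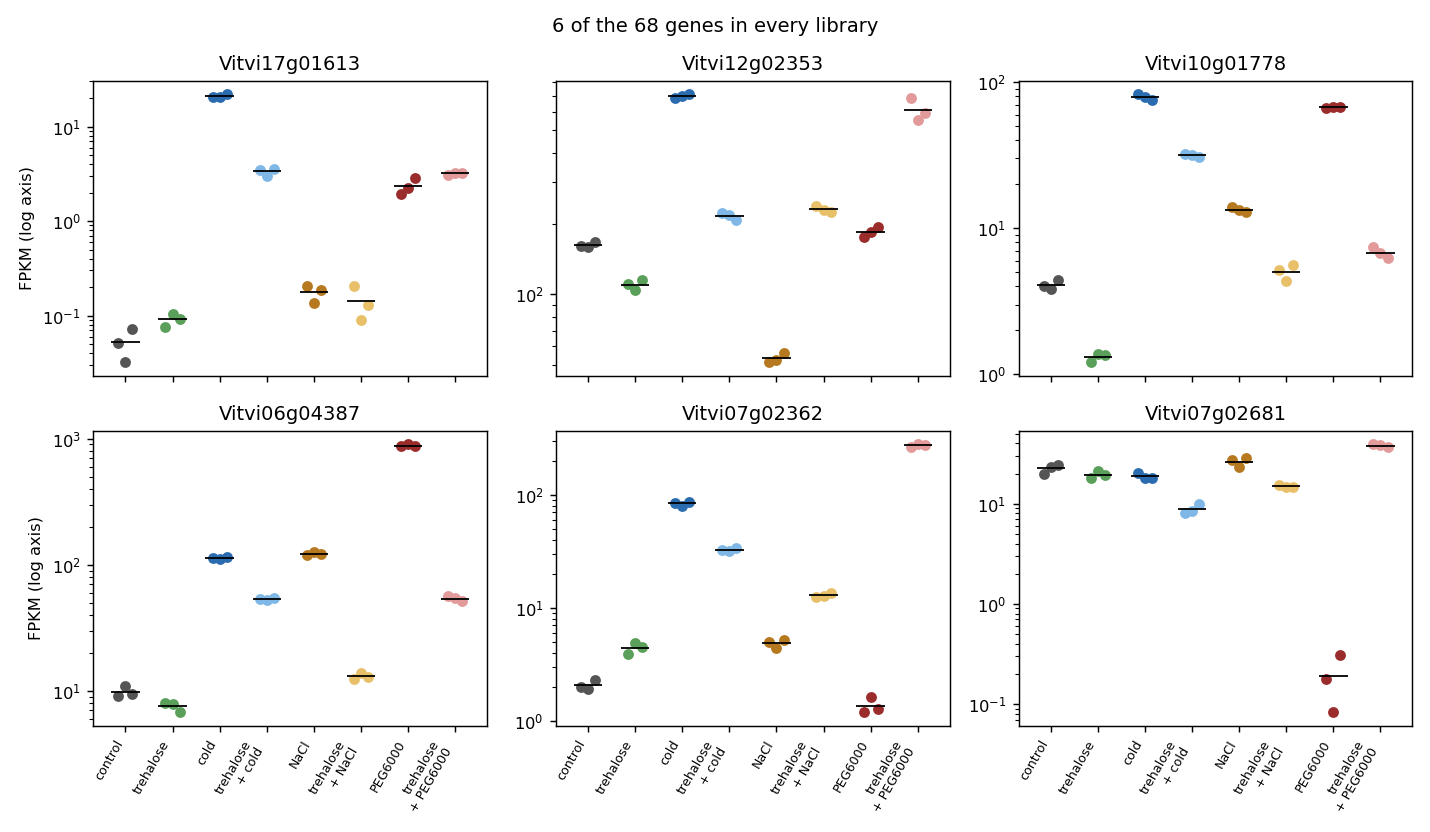
FPKM of 6 of the 68 genes in all 24 libraries, on a log axis. Points are libraries and lines are means over 3 replicates. Vitvi10g01778 is lower with trehalose in all 4 pairs of groups, whereas Vitvi07g02362 and Vitvi07g02681 are highest with trehalose and PEG6000.

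Whether trehalose acted differently from setting to setting was tested as a difference between its effects (interaction). Compared with its effect in unstressed leaves, the effect under NaCl was 2-fold higher for 8 of the 68 genes (0.484% of all genes) and 2-fold lower for 7 (4.11%). Under PEG6000 it was higher for 14 (7.91%) and lower for 21 (8.87%). Between PEG6000 and NaCl, the effect under PEG6000 was higher for 9 (8.82%) and lower for 17 (5.07%). Median-of-ratios scaling gave 5 and 18 genes, and 6.70 and 6.01% of all genes. Without the 2-fold limit the higher and lower counts were 18 and 22 for NaCl (14.3 and 28.7% of all genes), 23 and 31 for PEG6000 (38.3 and 29.2%) and 17 and 30 for PEG6000 against NaCl (40.1 and 19.9%). Vitvi19g00405 illustrates the first kind. It went from 45.5 ± 0.18 to 28.2 ± 0.32 FPKM with trehalose alone but from 16.6 ± 0.67 to 28.7 ± 1.2 FPKM with trehalose under NaCl (interaction 1.42, SE 0.055, limma adjusted p = 1.05e-15).

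Both PEG6000 and NaCl changed part of the set in leaves without trehalose. PEG6000 raised 32 of the 68 genes (14.4% of all genes) and lowered 6 (7.71%), and the median difference from control was 0.96 against 0.05 for all genes. With quantile normalization the counts were 30 and 7, with percentages of all genes of 11.9 and 11, and the median was 0.76 against -0.14. NaCl raised 13 (5.87%) and lowered 3 (0.962%), with a median of 0.27 against 0.14. With median-of-ratios scaling the NaCl counts were 12 and 4, with percentages of all genes of 4.50 and 1.60 and a median of 0.17 against 0.00. Without the 2-fold limit PEG6000 gave 48 higher and 12 lower genes (42.6 and 34.5% of all genes) and NaCl 37 and 11 (46.9 and 18.0%). Both comparisons share the control libraries, so they are given side by side and the difference between them was not tested. The gene that rose most under NaCl, and among those most raised under PEG6000, was Vitvi06g04387. From 9.18, 11 and 9.38 FPKM in control it rose to 120, 126 and 121 FPKM in NaCl (log2 difference 3.51, SE 0.054, limma adjusted p = 1.01e-23). In PEG6000 it rose to 871, 902 and 873 FPKM (6.35, SE 0.054, limma adjusted p = 2.14e-29), more than in the cold, where it was at 113, 112 and 114 FPKM.

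Vitvi18g00107 rose from 12.7, 13.6 and 14.7 FPKM to 108, 106 and 108 FPKM in NaCl (2.88, SE 0.048, limma adjusted p = 2.92e-23), and was at 80.5, 78.5 and 80.9 FPKM in cold. Vitvi05g02249 is listed at 0 in every control library and was at 3.35, 3.79 and 3.43 FPKM in NaCl. In the opposite direction, Vitvi19g00405 fell from 45.6, 45.3 and 45.6 FPKM to 17.4, 16.1 and 16.4 FPKM in NaCl (-1.40, SE 0.039, limma adjusted p = 3.05e-19). In PEG6000 it fell to 7.03, 7.21 and 7.21 FPKM (-2.51, SE 0.039, limma adjusted p = 6.07e-25), whereas cold libraries stood at 214, 208 and 210 FPKM. Vitvi12g02353 fell under NaCl from 160, 159 and 167 FPKM to the 51.3 to 56.1 FPKM given above (-1.59, SE 0.055, limma adjusted p = 1.74e-17). Vitvi07g02681 fell under PEG6000 from 19.9, 23.4 and 24.3 FPKM to at most 0.311 FPKM (-4.30, SE 0.086, limma adjusted p = 7.03e-23).

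In leaves that had trehalose, PEG6000 still raised part of the set. Against trehalose alone, trehalose with PEG6000 raised 25 of the 68 genes (6.17% of all genes) and lowered 0 (0.753%). Without the 2-fold limit 49 were higher and 2 lower, against 48.0 and 15.5% of all genes. With quantile normalization the 2-fold counts were 20 and 0, and the percentages of all genes 3.9 and 1.5. Trehalose with NaCl raised 9 (0.888%) and lowered 1 (0.539%), and with median-of-ratios scaling 8 and 1, with percentages of all genes of 0.653 and 0.723. Without the limit 39 were higher and 5 lower (33.4 and 16.1%). Of the 32 genes raised by PEG6000 without trehalose and the 25 raised with it, measured in separate libraries, 16 were shared, 50.0% of the first list and 64.0% of the second. For all genes the shared part was 29.6 and 68.8%.

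Vitvi05g04535 is among the genes that PEG6000 raised with trehalose as well, from 4.17, 3.93 and 4.29 FPKM to 68.6, 69.7 and 70.4 FPKM (log2 difference 3.78, SE 0.067, limma adjusted p = 9.19e-23). Vitvi07g02362 rose from 3.89, 4.90 and 4.46 FPKM to 264, 279 and 278 FPKM (5.67, SE 0.071, limma adjusted p = 1.17e-25), while PEG6000 without trehalose left it at 1.2 to 1.63 FPKM. Under NaCl with trehalose, Vitvi18g00107 rose from 6.60, 6.78 and 6.36 FPKM to 45.4, 42.7 and 42.6 FPKM (2.55, SE 0.048, limma adjusted p = 2.80e-21). Vitvi18g02494 rose from 3.31, 3.92 and 4.03 FPKM to 16.1, 13.9 and 14.3 FPKM (1.73, SE 0.060, limma adjusted p = 1.56e-16). Vitvi01g01805 was the gene that fell, from 15.2, 15.5 and 13.9 FPKM to 5.79, 4.72 and 5.95 FPKM (-1.30, SE 0.12, limma adjusted p = 1.07e-08).

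**Figure D5:**
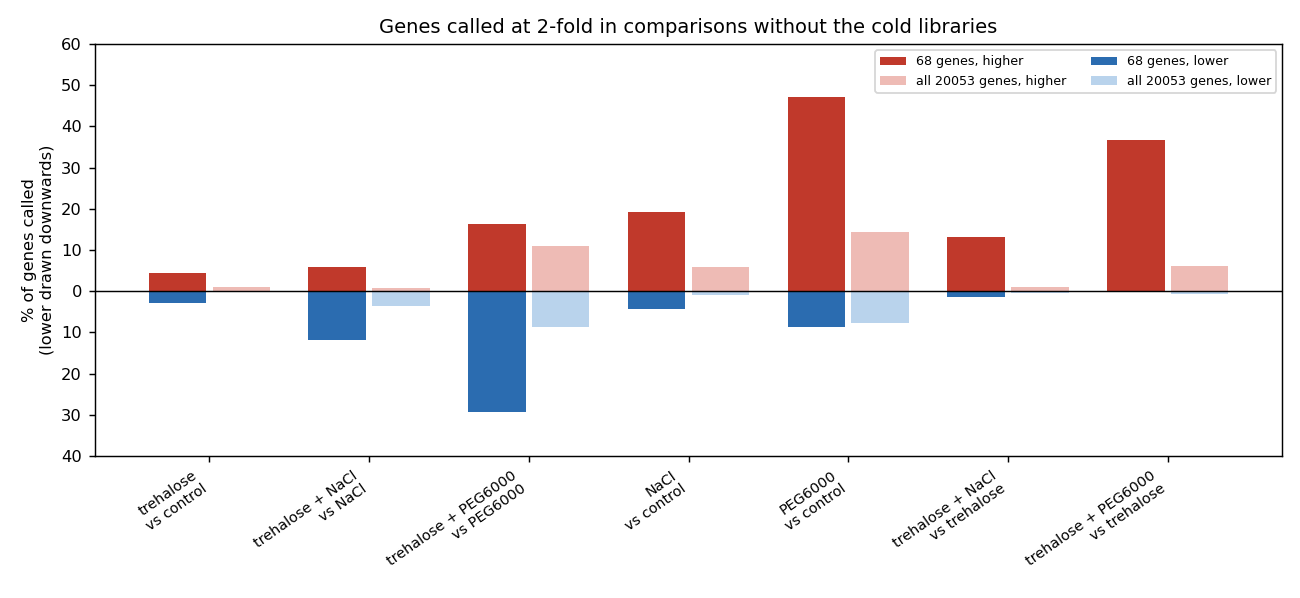
Share of the 68 genes and of all 20053 genes called at 2-fold (limma, adjusted p below 0.05) in 7 comparisons that use no cold library. The y axis is percent of genes, with genes called lower drawn downwards. The tallest bar of the 68 genes is the rise under PEG6000 (47.1%, against 14.4% of all genes).

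The genes of the set did not share 1 profile. Over the 8 group means of log2(FPKM + 1), 21 of them correlated with the median profile of the set at a Pearson's r of at least 0.9, the median r was 0.85 and 6 had an r below 0. Cold was the highest of the 8 groups for 45 genes, PEG6000 for 11, trehalose with PEG6000 for 9, and NaCl, trehalose with NaCl and control for 1 each. Over all 20053 genes, cold was highest for 10.6%, PEG6000 for 25.0% and trehalose with PEG6000 for 20.9%. The count for cold rests on libraries used to choose the genes, and the rule itself keeps trehalose with cold from being highest. Outside the set, the profiles most like its median were those of Vitvi08g01943 (r = 0.99 over 8 groups) and Vitvi11g01567 (r = 0.98). Vitvi08g01943 was at 22.2 ± 0.13 FPKM in control, 42.0 ± 1.4 FPKM in cold and 29.8 ± 0.88 FPKM in trehalose with cold, the same order on a narrower range.

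By their identifiers, 8 of the 68 genes formed 4 pairs that share the digits before the g and lie at most 5 numbers apart. The pair Vitvi17g04304 and Vitvi17g04302 had an r of 0.97 over the 8 groups, and Vitvi17g04302 was at 10.04, 11.2 and 11.4 FPKM in cold and 1.70, 1.58 and 1.64 FPKM with trehalose. The other 3 pairs had r of 0.39, 0.32 and -0.49. If such genes are near-identical copies, how reads were assigned to each is uncertain in these values.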

How the data were processed

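RNA-seq of leaves from 24 samples in 8 groups of 3 was available as 1 table of FPKM, which the authors computed per gene and library and deposited without pooling replicates. Per the submitters' processing notes, the tools included StringTie 2.1.3b, SAMtools 1.9, HISAT2 2.1.0 and fastp 0.20.0, listed without role or order. For build, annotation and strand use, the entry is: not given in the sources used here. FPKM is relative to the library total, so abundant genes can shift all others. Depth is unknown: ratios between 2 control libraries of 1911 genes above 0 and below 0.2 FPKM did not gather at steps (at most 1.99% in any window of 2%), so whole reads were not recovered. Columns were assigned to samples by name, with 0 unused.

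The members, lists and tests were chosen with earlier results of these data known. The lists of named pathway genes and cell type markers could not be matched to identifiers and were not tested. Values were transformed to log2(FPKM + 1), which understates changes of low genes. By the filter, 34 members were at 1 FPKM or more in all 24 libraries, and 4 passed it only through the cold and trehalose-with-cold libraries. Outside the filter, 1 gene met the same difference. Tests used limma 3.58.1 in R 4.3.3 (trended eBayes, 8 group means, 16 residual degrees of freedom), two-sided, Benjamini-Hochberg within each of 10 comparisons, and were checked on simulated data. Figures used Python 3.11.15 and matplotlib 3.10.9.

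Named genes were the 2 largest falls in the cold, the 2 most abundant in the cold, up to 2 rises and 2 falls per comparison (replicates not overlapping, higher group at 5 FPKM or more), the genes on either side of the limit and the 2 most alike profiles. Alternatives were the pseudocount, the filter, 3 scalings, the variance trend, the groups fitted, the replicate block, the fold limit and leaving out each library.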

Additional observations from a re-analysis of the deposited data

Results flagged for a closer look

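The effect of trehalose differed between settings for part of the set, by the interaction tests in limma. Under NaCl against unstressed leaves, 8 genes had a higher and 7 a lower effect (0.484 and 4.11% of all genes). Vitvi12g02353 (2.65) and Vitvi19g00405 (1.42) were the highest, and Vitvi06g04387 (-2.79) and Vitvi14g01985 (-1.69) the lowest, as log2 differences of the 2 effects. Under PEG6000 against unstressed leaves, 14 genes had a higher and 21 a lower effect (7.91 and 8.87% of all genes). The highest were Vitvi07g02362 (6.05) and Vitvi07g02681 (5.23), and the lowest Vitvi05g02249 (-6.89) and Vitvi07g00361 (-3.83). Vitvi05g02249 is listed at 0 in every control library, so its value depends on the pseudocount and is not a fold change.

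Under PEG6000 against NaCl, 9 genes had a higher and 17 a lower effect of trehalose (8.82 and 5.07% of all genes). The highest were Vitvi07g02681 (5.82) and Vitvi07g02362 (5.62), and the lowest Vitvi05g02249 (-5.06) and Vitvi07g00361 (-3.74). Vitvi07g00361 was at 132, 135 and 136 FPKM in PEG6000 and 17.5, 19.4 and 23.2 FPKM with trehalose and PEG6000, whereas trehalose raised it in unstressed leaves.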

How the results depend on the processing

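The set itself depended on the pseudocount: with 0.1 in place of 1 it held 161 genes, all 68 among them. It held 69 without the filter, 77 with common-sum scaling, 95 with median-of-ratios scaling (all 68 in each) and 66, sharing 56, with quantile normalization. With 1 cold or trehalose-with-cold library left out it held 65 to 70. For the 35 pairs of gene and comparison taken by the naming rule, all 632 values under the alternatives kept their direction and their call. Genes named after their values were seen were not among them.

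Counts of members higher and lower are given in that order. With the pseudocount of 0.1, trehalose against control gave 5 and 6, NaCl against control 24 and 5, and trehalose with NaCl against trehalose 14 and 2. It gave 7 higher for trehalose under NaCl and 11 lower for its interaction with NaCl. The percentages of all genes rose too, to 2.89 and 0.633 for trehalose against control, 10.3 and 1.89 for NaCl against control and 2.92 and 1.37 for trehalose with NaCl against trehalose. They were 2.21 higher for trehalose under NaCl and 7.49 lower for its interaction. When genes needed a mean of 5 FPKM, leaving 43 members, there was 1 lower for trehalose against control. There were 7 higher for trehalose under PEG6000, 16 for trehalose with PEG6000 against trehalose, 9 for the PEG6000 interaction and 5 for PEG6000 against NaCl. These counts are out of 43 members and cannot be compared directly with counts over the whole set. Under this filter, 0.158% of all genes were lower for trehalose against control and 8.75% higher for trehalose under PEG6000. The percentages higher were 6.04 for trehalose with PEG6000 against trehalose, 7.57 for the PEG6000 interaction and 6.78 for PEG6000 against NaCl. Median-of-ratios and quantile scaling each gave 5 higher for PEG6000 against NaCl, and quantile normalization 5 lower for NaCl against control. Quantile normalization also turned the members' median for the NaCl interaction from -0.09 to 0.02.

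With the adjusted p alone, the counts were 12 and 28 for trehalose against control, 37 and 11 for NaCl, and 12 lower for PEG6000. For trehalose under NaCl they were 16 and 27, under PEG6000 20 and 37. Against trehalose alone they were 39 and 5 for NaCl and 49 and 2 for PEG6000. The interactions gave 18 and 22 for NaCl, 23 higher for PEG6000, and 17 and 30 for PEG6000 against NaCl. The 53 members that met the rule whichever library was left out, an alternative chosen after seeing the data, gave 5 higher for trehalose under PEG6000, 9 for the PEG6000 interaction and 4 for PEG6000 against NaCl.

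Leaving out each library in turn gave 3 to 3 higher and 2 to 3 lower for trehalose against control, 13 to 15 and 2 to 4 for NaCl, and 31 to 34 and 6 to 8 for PEG6000. For trehalose under NaCl the ranges were 3 to 4 and 6 to 9, and under PEG6000 10 to 11 and 20 to 22. Against trehalose alone they were 9 to 10 and 1 to 1 for NaCl, and 25 to 27 and 0 to 0 for PEG6000. The interactions gave 8 to 8 and 5 to 8 for NaCl, 12 to 14 and 20 to 22 for PEG6000, and 6 to 10 and 16 to 17 for PEG6000 against NaCl. The causes of these changes were not tested.

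Replicate numbers did not pair the samples: deviations of same-numbered samples correlated at -0.0883 to 0.0372. With the replicate number as a block, the counts of members were those of the fit without it, such as 32 higher and 6 lower for PEG6000 against control. Depth is unknown, so the precision of low FPKM values could not be given.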
